A study of Mus musculus with 2 samples.

Results

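Chromatin accessibility was described at 10 genes of the Myc and Max network, chosen by name from the 22350 protein-coding genes annotated on chromosomes 1 to 19 and X: Myc, Mycn and Mycl1, their partner Max, the Max-binding repressors Mxd1, Mxd3, Mxd4, Mxi1 and Mnt, and the Max-like gene Mlx. The cells were splenic B cells of C57/Bl6 mice, 8 weeks old, Trp53+/+ and mock-treated, isolated with B220 MicroBeads by magnetic sorting. A single library of DNase I digested DNA and 1 input library were made, and both carried the same genotype and treatment, so there was no treated or mutant group to compare and no replicate. The deposited list of the DNase I library held 47542 peaks, here called DNase I hypersensitive sites (DHS), each with a score between 5.05 and 619 whose scale is not stated and whose median was 32.65. A DHS was assigned to a gene when it overlapped the gene body or the 100 kb on either side, and a promoter was any window reaching from 5 kb before to 2 kb past an annotated transcription start site (TSS). By this rule 138 DHS lay around the members, and 30 of them were at a member's own promoter. All positions are in mm9, and the annotation is GENCODE M1.

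DNase I cuts DNA preferentially where nucleosomes are displaced, so hypersensitive sites mark promoters, enhancers and other regulatory DNA. Myc proteins bind DNA as dimers with Max at E-box sequences and are known to promote growth, metabolism and cell cycle entry. Mxd proteins, Mxi1 and Mnt also dimerise with Max, bind the same sequences and recruit Sin3 co-repressors. Mlx is a Max relative that pairs with the glucose-responsive factors Mlxip and Mlxipl and with some of the repressors. In lymphocytes Myc is known to be low at rest and to be induced by mitogens, whereas several repressors are expressed in resting or differentiated cells.

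The library was first set against cell type markers. All 8 B cell markers had a promoter DHS, and the lowest of their top scores was 83.97, at Cd22. A promoter DHS was also found at 4 of 8 T cell markers (none at Cd3e, Cd3g, Cd4 and Cd8a, highest score 97.67 at Cd5), at 3 of 8 myeloid markers (18.16 at Itgam to 51.05 at Cd14) and at 2 of 4 erythroid markers (highest score 177.81, at Klf1). These counts stand beside 57.0% of all protein-coding genes with a promoter DHS, and the T cell and erythroid shares (50% each) are close to it. The contribution of other cells to the member DHS was not tested.

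All 10 members had at least 1 promoter DHS, against 57.0% of protein-coding genes. With 10 genes, a share of 100% has an exact binomial 95% lower bound of 69.2%, and this interval covers counting error only. All 10 promoters were also CpG-rich (55% GC or more, and CpG at 0.6 or more of the number expected from base composition, in the 1000 bp around the TSS nearest to the strongest DHS), against 40.0% of all genes. Among CpG-rich promoters 86.1% had a DHS, so the members' count has to be read against that share. A DHS within 1 kb of a TSS was also found in 10 of 10 (53.7% of genes), as were a DHS centred in the window (56.5%) and a DHS at a TSS of a protein-coding transcript (56.3%). A promoter DHS at or above the median score of the list was found in 9 (50.3%). Only genes with a promoter DHS can meet these criteria. Of the 12747 genes with one, 11991, 12626, 12589 and 11231 met them, in the order given. The order of the strongest promoter DHS was Mnt (319.2), Mxi1 (164.71), Myc (137.72), Mxd3 (131.91), Mlx (126.93), Max (121.41), Mxd4 (99.41), Mycl1 (99.02), Mxd1 (89.95) and Mycn (20.98). The median over the 10 was 124, beside a median of 101 (quartiles 59.0 and 152) over genes with a promoter DHS and 115 over CpG-rich ones. In 6 members, from Max up to Mnt, the value exceeded 101. With scores summed over a gene's promoter DHS, Mycn moved from the 6.44th to the 17.9th percentile and Mxd1 from the 42.9th to the 65.7th. Without a second library, neighbours in this order cannot be said to differ. The repressors spanned 89.95 to 319.2 and the Myc family 20.98 to 137.72, so the ranges of these groups overlapped.

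**Figure D1:**
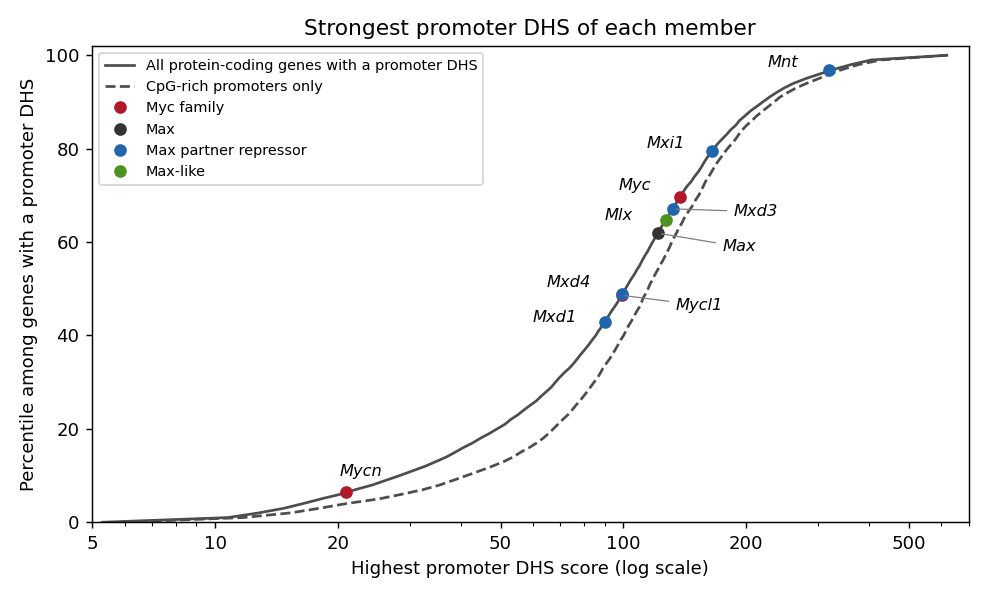
The strongest promoter DHS score of each member (x axis, log scale) against its percentile among protein-coding genes with a promoter DHS (y axis, %). Points are members coloured by role, the solid line is all such genes and the dashed line the CpG-rich ones; Mycn sits at the 6.44th percentile and Mnt at the 96.8th.

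The strongest score and the extent did not rank the members alike. DHS covered 67.8% of the promoter window of Myc, the 99.5th percentile of genes with a promoter DHS, while its strongest score lay at the 69.7th. With scores summed over its promoter DHS, Myc lay at the 94.9th percentile, closer to its place by coverage. In Mnt coverage was 55.1% (98.2nd percentile), in Mycn 48.1% (96.9th), in Mxd3 44.7% (95.7th) and in Mxd4 36.8% (90.9th). The remaining members were covered at 22.9% (Mycl1), 25.7% (Mlx), 26% (Mxi1), 28.0% (Mxd1) and 30.3% (Max). All 10 lay above the median of 17.5%. The Mlx value includes part of a DHS at the promoter of the neighbouring gene Coasy, without which Mlx would fall below that median. A promoter window grows with the number of separate TSSs of a gene, and coverage is given per length of that window.

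**Figure D2:**
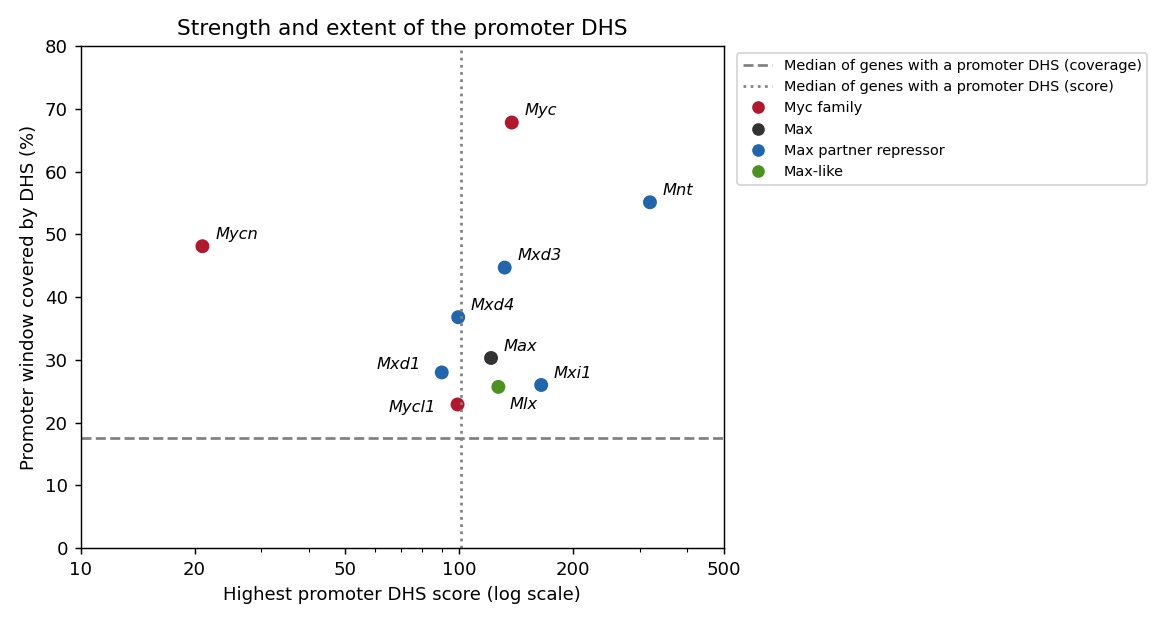
Strongest promoter DHS score (x axis, log scale) against the share of the promoter window covered by DHS (y axis, %). Each point is a member coloured by role, and the lines are the medians of genes with a promoter DHS (score 101, coverage 17.5%). All 10 members lie above the coverage line, Mlx only with a DHS at the Coasy promoter counted. Mycn is the only point far to the left.

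Myc (ENSMUSG00000022346.8, chr15:61816946-61821929, plus strand) encodes the growth-promoting transcription factor after which the family is named. Its promoter held 6 DHS, and 0.957% of genes had 6 or more. In gene order their scores were 49.61, 60.4, 35.24, 19.61, 75.89 and 137.72. The strongest was 2892 bp wide (chr15:61816994-61819885) and covered 4 of the 5 annotated TSSs, from the second to the last. The most upstream TSS, at position 61816946, fell into a gap of 137 bp between the DHS with scores 75.89 and 137.72, 48 bp from the nearer edge. Neighbouring DHS closer than 500 bp, when merged (an alternative chosen after the data were seen), left 2 DHS, the wider of 5283 bp (chr15:61814603-61819885). The number of promoter DHS of Myc was at the 98.8th percentile of genes with a promoter DHS as deposited and at the 79.9th after merging. Across the whole list 11.5% of gaps between neighbouring DHS were under 150 bp, and 6 such gaps stood before own promoter DHS of the members. The sequence of the stretch just before the first Myc TSS is shown because no DHS was called over it. It runs from 30 bases inside the upstream DHS (lower case) through the 89 bases of the gap that precede the TSS (capitals), in mm9, plus strand, and its gap part had 64.0% GC and 6 CpG.
Myc upstream gap, chr15:61816827-61816945: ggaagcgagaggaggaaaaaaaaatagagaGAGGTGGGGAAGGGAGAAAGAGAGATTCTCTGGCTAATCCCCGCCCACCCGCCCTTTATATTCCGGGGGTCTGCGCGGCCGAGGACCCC

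The other Myc family genes had lower scores in this library. Mycn (ENSMUSG00000037169.8, chr12:12942902-12948720, minus strand), which is known mainly from neural and other progenitor tissue, had 3 promoter DHS with scores 19.93, 15.29 and 20.98 and 1 exonic DHS of 13.2. All 3 annotated TSSs were covered. Merged, these 4 DHS formed a single block of 5463 bp (chr12:12944314-12949776), which spans most of the gene. The next DHS were 272773 bp from the gene on its upstream side and 312635 bp on its downstream side. Mycn was among 827 genes whose strongest promoter DHS scored 20.98 or less, and in 3 of these (0.363%), Mycn itself and 2 others, coverage was 48.1% or more. The median coverage of the 827 was 5.94%. The 395 genes with coverage of 48.1% or more, Mycn included, had a median top score of 160. Low accessibility in many cells and high accessibility in few cells cannot be told apart in this bulk library. Mycl1 (ENSMUSG00000028654.7, chr4:122672895-122679728, plus strand), the L-Myc gene, had 2 promoter DHS with scores of 99.02 (1109 bp, chr4:122672204-122673312) and 27.29. The stronger covered 2 of its 5 TSSs and lay at the 48.6th percentile.

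Max (ENSMUSG00000059436.5, chr12:78038256-78063235, minus strand), the shared partner of the Myc and Mxd proteins, had a 1809 bp DHS scoring 121.41 over both TSSs, with its centre 9 bp upstream of the nearest one. A second promoter DHS scored 9.58, and 2 intronic DHS scored 39.97 and 38.31. Mlx (ENSMUSG00000017801.9, chr11:100948591-100953521, plus strand) was close in score at 126.93 (1464 bp, centre 49 bp upstream of the nearest TSS). Its second promoter DHS, scoring 114.45, was centred 4749 bp upstream and overlapped the promoter of the neighbouring gene Coasy, so it cannot be assigned to Mlx by position.

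Among the repressors Mnt (ENSMUSG00000000282.6, chr11:74644422-74659227, plus strand) had the strongest and the widest promoter DHS of the 10 members. The DHS scored 319.2 (99.2nd percentile of the list) over 5069 bp (chr11:74641455-74646523, 99.9th percentile in width), and covered the first TSS. A second DHS, at an internal TSS, scored 260.22 over 2532 bp (chr11:74650576-74653107). Mxi1 (ENSMUSG00000025025.7, chr19:53384996-53450300, plus strand) had 6 promoter DHS of 13.75, 27.9, 164.71, 26.05, 43.22 and 162.54. The TSS furthest upstream was covered by the weakest of the 6, and the strongest was centred 3046 bp downstream of it inside an intron. The DHS of 162.54 (chr19:53404068-53405058) covered the last of its 3 TSSs, at 53404936, and the middle TSS, at 53403903, was 38 bp outside a DHS. Merging left 3 DHS.

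Mxd3 (ENSMUSG00000021485.7, chr13:55426529-55431119, minus strand), a Mxd gene known to be expressed in proliferating cells, had a 1888 bp DHS of 131.91 over all 3 TSSs and further promoter DHS of 60.44 and 41.81. Mxd1 (ENSMUSG00000001156.7, chr6:86597038-86619153, minus strand), a gene linked to terminal differentiation, had DHS of 89.95 and 81.43 upstream, and its single TSS was 305 bp from the nearer. Mxd4 (ENSMUSG00000037235.7, chr5:34516536-34530369, minus strand) had DHS of 99.41 and 25.17 on either side of a 519 bp gap that held both TSSs, 236 and 246 bp from the edge of the weaker DHS, which lies downstream. A DHS covered some TSS in 8 of 10 members (80%, exact 95% interval 44.4 to 97.5), against 46.6% of genes. A DHS covered the most upstream TSS in 7 (70%, interval 34.8 to 93.3), against 40.6%. The exceptions were Mxd1 and Mxd4, and, for the most upstream TSS, also Myc. Only a gene with a promoter DHS can have a covered TSS. Of the 12747 genes with a promoter DHS, 10414 had some TSS covered and 9063 the most upstream, so neither share of the members stands out.

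The stretches upstream of the Mxd1 and Mxd4 TSSs without a called DHS are shown in gene direction (minus strand, mm9). Lower case marks the 30 bases inside the upstream DHS and capitals the following 250 bases of the gap. GC was 72.4% with 25 CpG in the Mxd1 capitals and 58.8% with 14 CpG in those of Mxd4. The Mxd4 stretch holds an E-box CACGTG, centred 206 bp upstream of the nearest TSS, outside any DHS. Neither stretch overlapped an annotated exon.
Mxd1 upstream gap, chr6:86619208-86619487: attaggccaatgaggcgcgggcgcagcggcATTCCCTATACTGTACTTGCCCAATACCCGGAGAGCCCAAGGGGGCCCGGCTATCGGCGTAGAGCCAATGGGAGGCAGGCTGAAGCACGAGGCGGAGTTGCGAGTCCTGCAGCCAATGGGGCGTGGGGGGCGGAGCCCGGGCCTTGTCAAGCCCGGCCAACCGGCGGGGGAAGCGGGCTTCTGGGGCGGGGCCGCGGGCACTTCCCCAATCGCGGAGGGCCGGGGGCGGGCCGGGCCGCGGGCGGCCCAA
Mxd4 upstream gap, chr5:34530393-34530672: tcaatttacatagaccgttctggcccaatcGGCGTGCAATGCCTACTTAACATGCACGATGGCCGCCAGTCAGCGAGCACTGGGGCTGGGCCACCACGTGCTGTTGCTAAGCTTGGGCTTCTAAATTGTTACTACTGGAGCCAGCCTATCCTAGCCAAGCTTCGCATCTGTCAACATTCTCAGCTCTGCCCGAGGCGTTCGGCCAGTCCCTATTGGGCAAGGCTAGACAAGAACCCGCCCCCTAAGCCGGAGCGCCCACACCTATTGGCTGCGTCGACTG

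**Figure D3:**
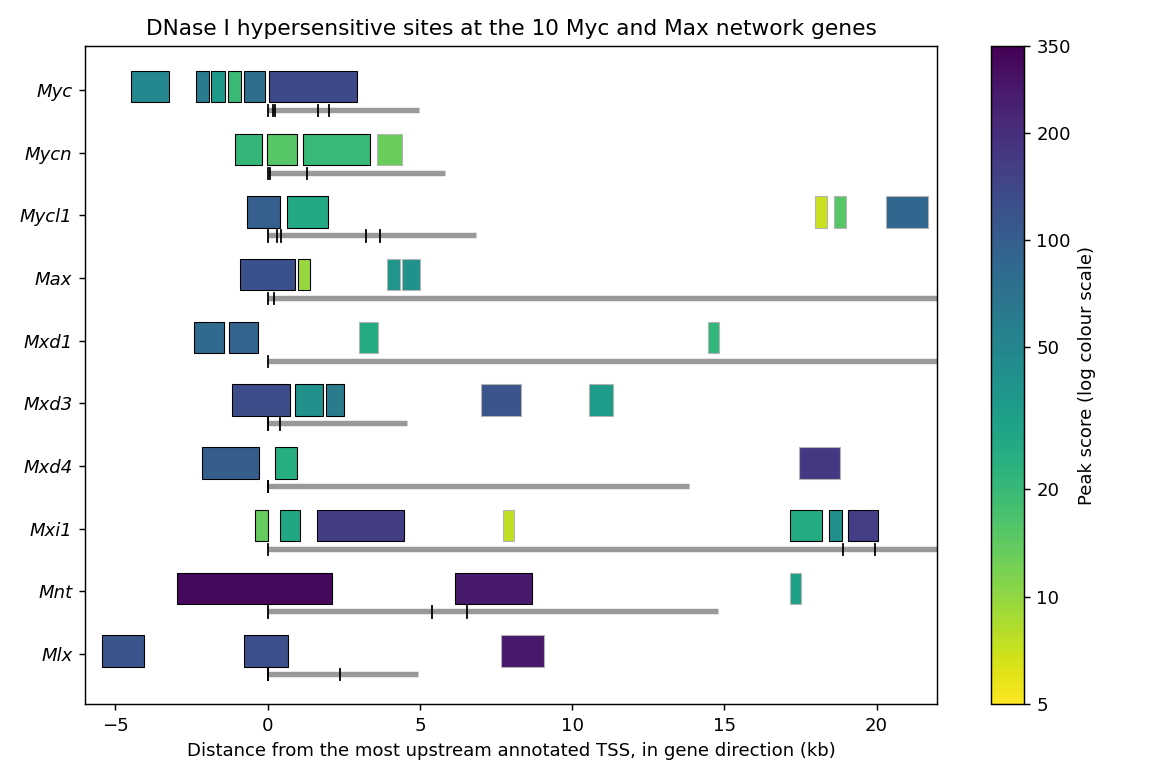
DHS at the 10 members by distance from the most upstream TSS (x axis, kb, in gene direction). Boxes are DHS filled by score on a log colour scale, black edges mark own promoter DHS, grey bars are gene bodies and ticks are TSSs; the widest box is the Mnt DHS of 5069 bp, and Myc shows its row of 6 boxes.

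The E-box CACGTG, the sequence bound by Myc-Max and by the Max-repressor dimers, was searched in the DHS of all members. It is its own reverse complement, so both strands are read at once. The word was present in 6 of the 30 own promoter DHS (20%, exact 95% interval 7.71 to 38.6), close to the share in all promoter DHS (20.1%) and in all DHS (16.2%). These 6 DHS belonged to 6 members (60%, interval 26.2 to 87.8), beside 35.1% of all genes with a promoter DHS. A gene with more DHS sequence at its promoter has more room for the word, and this was not accounted for. The promoter windows of the members held 20 matches, 10 of them inside DHS. Every member but Myc had the word somewhere in its window, beside 67.2% of all protein-coding genes, and longer windows have more room for it. The matches of Mycn, Mxd1 and Mxd4 lay outside DHS. The 10 matches inside DHS are printed in gene direction with 12 bases on either side, since the word is the one that the network's own proteins bind. The capitals are the word, and the coordinates (mm9) are of the printed 30 bases. A match is a description of sequence, not a bound site.
Max at its TSS, chr12:78063221-78063250, minus strand: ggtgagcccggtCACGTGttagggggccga
Max 275 bp upstream, chr12:78063496-78063525, minus strand: cccagctccctcCACGTGtcctgtcttccc
Mlx 25 bp upstream, chr11:100948552-100948581, plus strand: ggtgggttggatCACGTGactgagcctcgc
Mnt 117 bp upstream, chr11:74644291-74644320, plus strand: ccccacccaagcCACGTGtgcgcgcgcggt
Mnt 478 bp downstream in an exon, chr11:74644886-74644915, plus strand: aacaacagagagCACGTGgtgagcggcccg
Mnt 1384 bp downstream in an intron, chr11:74645792-74645821, plus strand: cccgcccccgacCACGTGcacgggggacac
Mxd3 253 bp upstream, chr13:55431358-55431387, minus strand: gcgtcccgcgcgCACGTGtagcccaggccg
Mxd3 933 bp upstream, chr13:55432038-55432067, minus strand: gggcctgattggCACGTGactgtgttttcc
Mycl1 1083 bp downstream in an intron, chr4:122674411-122674440, plus strand: gtgtctgtctggCACGTGggtgtgttggta
Mxi1 817 bp upstream of its middle TSS, chr19:53403072-53403101, plus strand: ttcagtgcctggCACGTGtctggccttacc

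Of these matches, those at Max and Mlx, the first of Mnt and the first of Mxd3 lay within 300 bp of a TSS. In the central 300 bp of the DHS the word was found in 3 of 30 (10%, interval 2.11 to 26.5), against 6.61% of all promoter DHS. The variant CACGCG on either strand was present in 11 of 30 (36.7%, interval 19.9 to 56.1), in 8 members, against 25.3% of all promoter DHS and 14.8% of all DHS. Any E-box CANNTG was in 28 of 30, against 95.4% of promoter DHS and 95.1% of all DHS. The E2F words TTTGGCGC or TTTCCCGC, read on both strands, were in 3 DHS, those of Myc, Mxd3 and Mnt (10%, against 5.49% of promoter DHS and 3.21% of all DHS), and E2F factors are known regulators of cell cycle genes. The PU.1 word GAGGAAGT was in 3 DHS, of Mxi1 and Mnt (10%, against 8.87% and 8.90%), and the CTCF core word in 0 of 30, which allows a share of up to 10% by a floor of 3 counts (exact 95% upper limit 11.6%, against 1.81% of promoter DHS and 2.17% of all DHS). Restricted to the central 300 bp, CACGCG was in 2 of 30 (6.67%, interval 0.818 to 22.1), against 10.3% of all promoter DHS. In the same central part the E2F words were in 1 of 30 (against 1.80%), the PU.1 word in 0 (against 2.95%), the CTCF word in 0 (against 0.945%) and any CANNTG in 21 (against 72.1%). The match in the Myc DHS, 92 bp downstream of its most upstream TSS in an exon, is shown with the word on the opposite strand in capitals.
Myc E2F word, chr15:61817024-61817053, plus strand: gccgacgcttgGCGGGAAAaagaagggagg

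The p53 response element (20 bases, at most 2 mismatches, with the core C and G always kept) is of interest because the study concerned p53. It matched 49 times in the member windows and 3 times inside a DHS, in 2 of 138 DHS (1.45%), against 1.02% of all DHS and 1.05% of promoter DHS. The first was in the most upstream Myc promoter DHS, with 2 mismatches, centred 4237 bp before the TSS. The other 2 overlapped one another in an intergenic DHS of 47.33 (chr12:78100652-78101990), 37504 and 37514 bp upstream of Max, with 2 and 1 mismatches. Capitals mark the element.
Myc, chr15:61812695-61812724, plus strand: gttcaAAACTAGCTTGAACTGGCTGcatag
Max first element, chr12:78100725-78100754, minus strand: agcccTAACATGCTCTAACTTGCCTctttt
Max second element, chr12:78100735-78100764, minus strand: tgcagAAGCTAGCCCTAACATGCTCtaact

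The loci varied in the density of all DHS, promoters included, counted per Mb of gene body plus flanks. Mxi1 had 117 DHS per Mb (31 DHS, exact Poisson 95% interval 79.4 to 166), the 95.5th percentile of protein-coding gene windows, and Mlx 107 (22 DHS, 67.3 to 163). Mycl1 had 82.2 (17 DHS, 47.9 to 132) and Mxd3 63.5 (13 DHS, 33.8 to 109). Mycn was lowest at 19.4 (4 DHS, 5.30 to 49.8), followed by Mnt at 37.2 (8 DHS) and Myc at 43.9 (9 DHS, 20.1 to 83.3). Max, Mxd4 and Mxd1 had 48.9, 51.4 and 54.0. The median over the members was 52.7 against 33.5 over all gene windows, and 9 of 10 members were above it. Most of these intervals overlapped, and those of Mxi1 and Mlx were the only 2 with lower limits above the upper quartile of 64.2. The order depended on the counting. With 50 kb flanks Myc had 76.2 per Mb, above Max (48.0), Mxd1 (65.5) and Mxd3 (66.9). After DHS closer than 500 bp were merged, Mxi1 had 71.6, below Mlx at 87.8, and Mycn had 4.86. Other protein-coding genes overlapped the windows in numbers from 0 at Myc to 12 at Mlx, and flank DHS may belong to them.

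**Figure D4:**
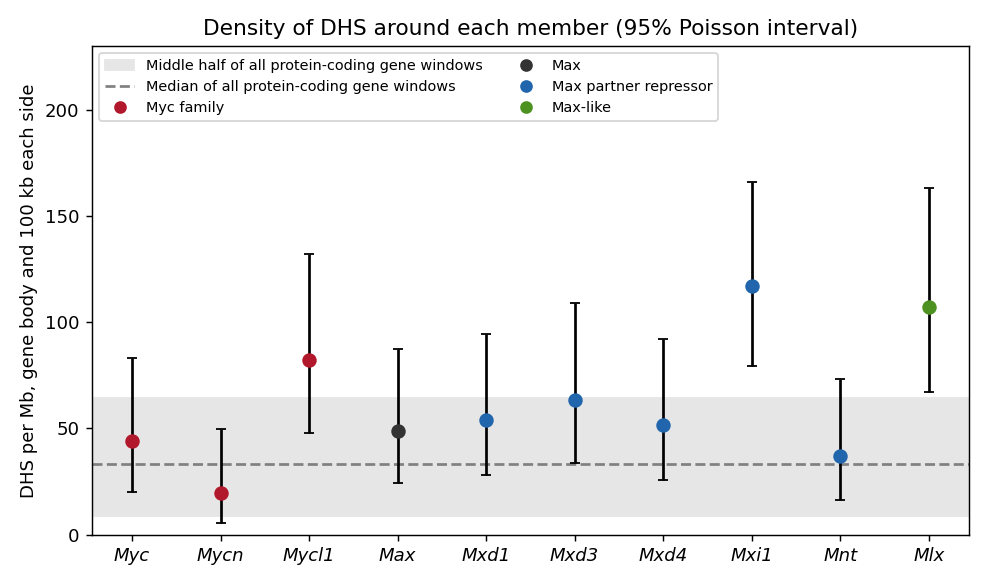
DHS per Mb in the gene body plus 100 kb on each side for each member (y axis), with exact Poisson 95% intervals as bars and points coloured by role. The dashed line is the median of all protein-coding gene windows (33.5) and the grey band the range between the quartiles (8.97 to 64.2); the points of Mxi1, Mlx and Mycl1 lie above the band, and the whole intervals of Mxi1 and Mlx do.

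Of the 138 DHS, 87 (63.0%, exact 95% interval 54.4 to 71.1) were at a promoter of a member or of a neighbour, against 47.5% of all DHS. The windows were placed on genes that all had a promoter DHS, so own promoter DHS are in this share by construction. The 47.5% is not over such windows, so an excess cannot be read from these shares. Among DHS at or above the median score the shares were closer, at 69.7% and 62.1%. Own promoters accounted for 21.7%, other promoters for 41.3%, exons for 7.25%, introns for 8.70% and intergenic DNA for 21.0%. The 51 DHS outside promoters had a median score of 26.1, close to 24.3 for all such DHS, and 6 of them were in a member's gene body. The strongest was 46772 bp downstream of Mxi1 (230.65, 3406 bp, chr19:53497072-53500477, intergenic, 97.7th percentile of the list). It held 1 CACGTG and 2 PU.1 words. Upstream of Max, 76890 bp from the gene, an intergenic DHS scored 135.28 (1634 bp, chr12:78140125-78141758) and held 2 PU.1 words. An intronic DHS 75132 bp upstream of Mxd3 (in another gene) scored 103.44, and an intergenic DHS 60988 bp upstream of Mycl1 (2313 bp, chr4:122609595-122611907) scored 100.91. Neither held a PU.1 word or CACGTG. Over the 51 DHS outside promoters, 8 held the PU.1 word (15.7%, against 8.90% of all DHS) and 5 held CACGTG (9.80%, against 16.2%). Wider DHS have more room for a word, and width was not accounted for. The highest outside a promoter elsewhere was 71.14 for Mlx, 48.96 for Mxd1, 31.42 for Mnt, 25.31 for Myc (an intron of Pvt1), 14.47 for Mxd4 and 13.2 for Mycn (its own exon). Among these only that of Mlx held a PU.1 word.

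**Figure D5:**
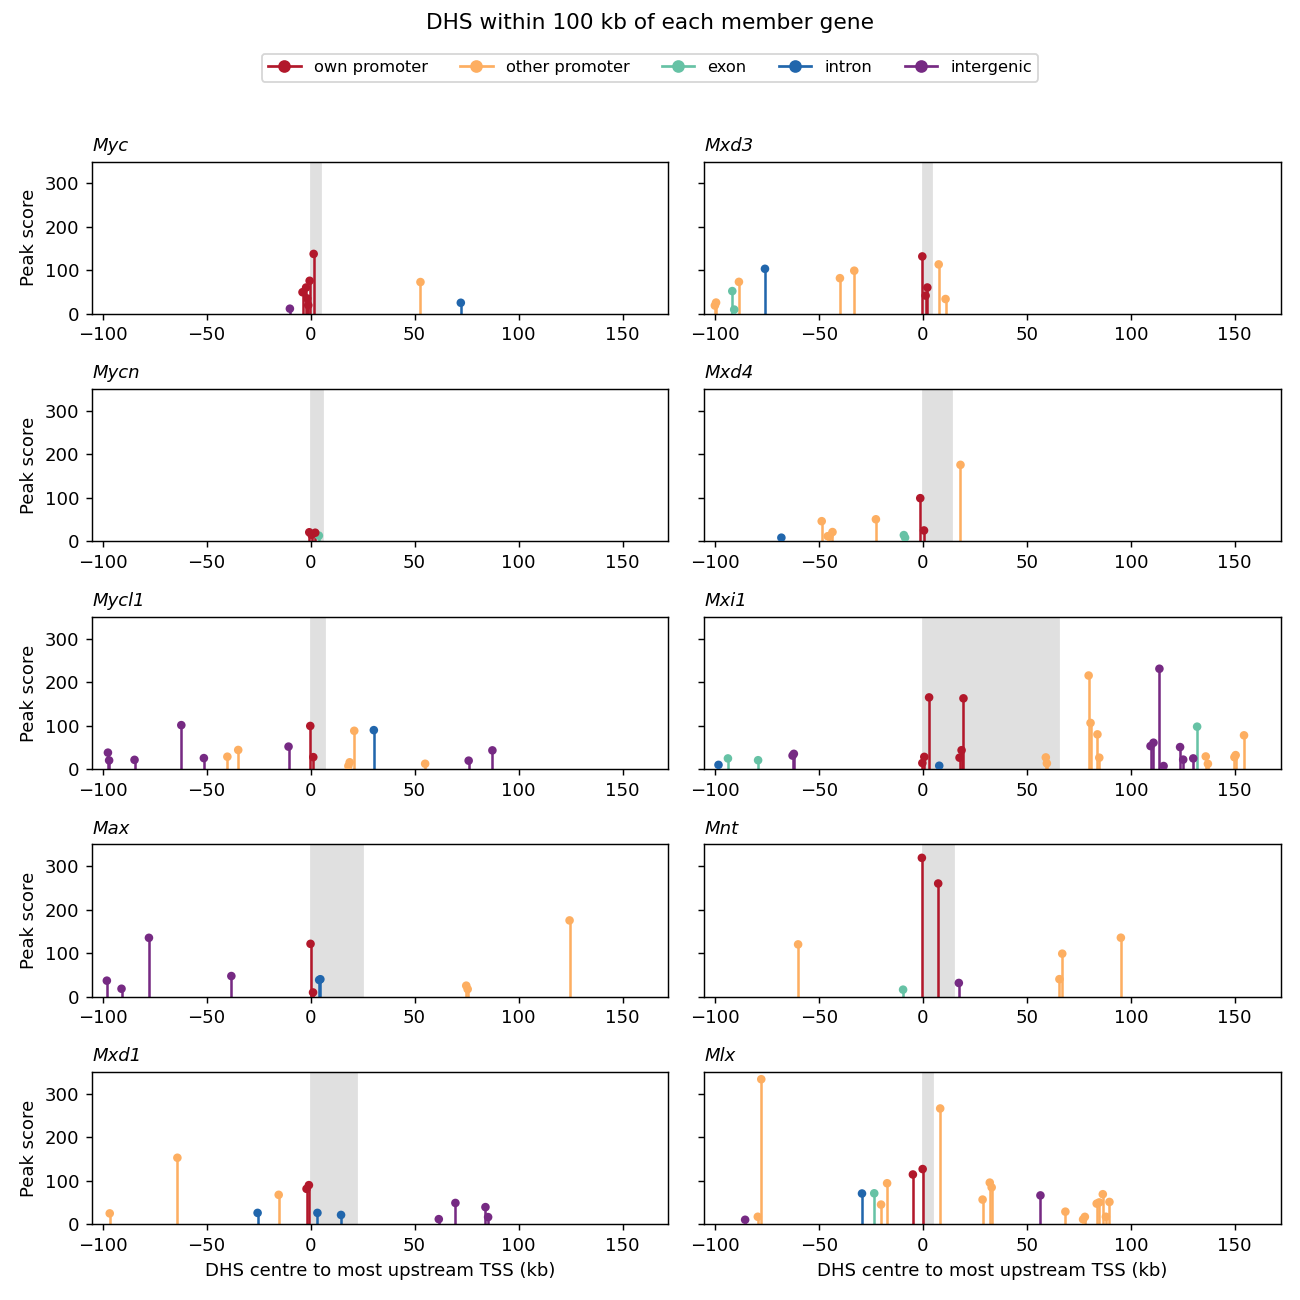
All DHS assigned to each member by distance of the DHS centre from the most upstream TSS (x axis, kb, gene direction) and score (y axis). Colours give the position class and grey bands the gene body; the tallest intergenic bar is the Mxi1 DHS of 230.65 at 113778 bp from the TSS.

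At the 100 kb limit, the outermost DHS inside was 99783 bp from Mxd3 (18.97) and the nearest outside was 101499 bp from Mxi1 (13.31), with that of Mxd1 at 101655 bp (33.45).

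Genes that work with the network were listed as partners and targets. All 23 partners (exact lower bound 85.2%) had a promoter DHS, against 57.0% of protein-coding genes, with a median top score of 113.5, from 37.07 at Kat2a, a histone acetyltransferase, to 376.11 at Sin3a, the co-repressor scaffold that Mxd proteins recruit. A CACGTG in a promoter DHS was present in 11 of the 23 (47.8%, interval 26.8 to 69.4), against 35.1% of genes with a promoter DHS. All 22 listed Myc target genes (lower bound 84.6%) had a promoter DHS, with a median of 130.6, from 27.31 at Tert, the telomerase reverse transcriptase, to 398.66 at E2f2, a cell cycle transcription factor. The E-box word was in a promoter DHS of 20 of the 22 targets (90.9%, interval 70.8 to 98.9), all but Pcna and E2f2, against the same 35.1%. These targets were listed from general knowledge as Myc-regulated genes, so the share is a description. The amount of promoter DHS sequence per gene was not accounted for in the shares with the word. CpG-rich promoters, 86.1% of which had a DHS over all genes, made up 18 of the 23 partners and 15 of the 22 targets.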

How the data were processed

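DNase I digested DNA and input DNA of splenic B cells were sequenced in 1 library each, and the authors deposited a single BED list of peaks for the DNase I library. The score deposited with each peak has no stated scale, and peak caller settings for this assay, read depth and use of the input are not given in the sources used here. Per the study's methods, nuclei were digested at several DNase I concentrations, the digest with the best qPCR signal over background was sequenced, and fragments below 500 bp were selected, which limits the DNA seen. Whether animals were pooled is not given in the sources used here. The submitters' processing notes name BWA 0.6.2, SAMtools and mm9. Peaks on chromosomes 1 to 19 and X (47474) were assigned to GENCODE M1 genes and TSSs, with at least 1 bp of overlap and BED starts moved to 1-based positions, in Python 3.11.15 with numpy 2.4.6 and scipy 1.17.1. Percentiles are among protein-coding genes, whose windows overlap. Words were counted on both strands of the mm9 sequence. With 1 library no test was possible, and intervals (95%) cover counting error only. Code was tested on simulated peaks. The named genes were all 10 members, plus, for each list, its highest and lowest genes and the fewer of those with or without a promoter DHS. Values of 2 marker genes that this rule names are not reported here. The members, gene lists and rules were chosen with earlier results of these data known. Promoter width, score threshold, flanks, merging and the part of the peak searched were varied.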

Additional observations from a re-analysis of the deposited data

How the results depend on the processing

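The absence of a DHS means that none was called in this list, and a second library would be needed to give an error for any score. All 10 members kept a promoter DHS with a window of 1 kb around the TSS, with peak centres and with protein-coding transcripts, and 9 did so at or above the median score, where Mycn was lost. Partners kept 23 of 23 throughout, and targets fell to 21 of 22 at or above the median score. The members' median percentile of the top promoter score, 63.3, was 63.2 with the 1 kb window and 73.3 with scores summed over promoter DHS, where Mycn moved from 6.44 to 17.9 and Mxd1 from 42.9 to 65.7. The median of 52.7 DHS per Mb became 71.6 with 50 kb flanks, 52.6 with 250 kb, 30.2 for DHS at or above the median score and 43.0 after merging, beside 33.9, 32.0, 17.4 and 27.0 over all gene windows. For single loci, values more than 1.5 times away were 76.2 at Myc, 37.8 at Mycn and 87.8 at Mxd4 with 50 kb flanks, and 7.91 at Mycn with 250 kb. At or above the median score they were 0 at Mycn, 38.7 at Mycl1, 31.1 at Max, 27.0 at Mxd1, 18.7 at Mxd4 and 49.0 at Mxi1. After merging they were 24.4 at Myc, 4.86 at Mycn and 71.6 at Mxi1. Merging also lowered the number of promoter DHS from 3 to 1 at Mxd3 and from 2 to 1 at Mycl1, Max and Mxd1. That number stayed at 2 at Mxd4, Mnt and Mlx. The share at promoters, 63.0%, was 46.4% with the 1 kb window (36.1% of all DHS) and 69.7% at or above the median score (62.1% of all DHS). The 6 own promoter DHS with CACGTG became 3 in the central 300 bp and 28 for any CANNTG. In 500 bp windows 9 of 10 promoters were CpG-rich, Mycl1 not. No paired analysis was possible because there was 1 DNase I library.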

Other observations

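The wider surroundings of Myc were described after its values had been seen, because no other protein-coding gene overlapped its 100 kb flanks. Upstream, 3 DHS lay between 500 and 100 kb from the gene (7.50 per Mb, exact Poisson 95% interval 1.55 to 21.9). The nearest of these was 443631 bp from the gene, so they were not spread evenly over that stretch. Between 1000 and 500 kb upstream there were 6 DHS (12 per Mb), the strongest of which was intergenic and scored 193.14 (chr15:61271564-61273587). Downstream, between 100 and 500 kb, 17 DHS gave 42.5 per Mb (24.8 to 68.0), against a mean of 19.7 over chromosome 15. Further downstream the density was 8.00 per Mb, with 4 DHS between 500 and 1000 kb and 8 between 1000 and 2000 kb, and from 2000 to 1000 kb upstream there were 2 DHS. The strongest of the 17 scored 161.97 and was in an intron of Pvt1 (chr15:61999927-62002506), the noncoding gene next to Myc. Pvt1 (ENSMUSG00000072566.3, chr15:61869542-62209651, plus strand) held 15 DHS in its body, with scores from 10.27 to 161.97 and a median of 20.90. Position alone does not assign any of them to Myc or to Pvt1.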
